A study of Mus musculus with 10 samples.

Results

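The endoplasmic reticulum (ER) folds the proteins a cell secretes, and 34 genes of ER folding, ER stress signalling and procollagen export are described here out of 49568 genes in the deposited table. They were listed by name and function: 11 luminal chaperones and co-chaperones, 5 disulfide isomerases, 3 genes of ER-associated degradation, 4 genes of the unfolded protein response (its 3 sensors and Xbp1), 7 genes of the integrated stress response and 4 genes of procollagen folding and export. The RNA came from cultured mouse pancreatic cancer lines, 10 in all and 1 library each. Lines A2032, A2031, A1625, A1620 and A1081 are labelled KPC, and lines A3992, A2441, A1925, A1809 and A1693 KPCAf/f. KPC denotes a mouse model of pancreatic cancer, a background that both genotypes share by their labels. The labels spell out neither the alleles nor the Cre driver, and KPCAf/f is read here as KPC with floxed (conditionally deletable) alleles of Arid1a, the chromatin remodeller gene named in the series title. Cultures were kept in DMEM containing 10% fetal bovine serum, and the labels give no ER stressor or other treatment. They do not say whether each line came from its own mouse, so that p-values measure the spread between these 10 lines.

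Unfolded protein in the ER lumen is sensed by 3 membrane proteins, IRE1 (Ern1), PERK (Eif2ak3) and ATF6. ATF6 and the spliced product of Xbp1 raise chaperone and degradation genes, while PERK, like other kinases that act on eIF2α, raises translation of ATF4 and so the genes of amino acid supply and stress signalling. Type I procollagen is a large ER client: prolyl 4-hydroxylase and disulfide isomerases modify and assemble its chains, HSP47 (Serpinh1) and FKBP65 (Fkbp10) hold them during folding, and TANGO1 (Mia3) loads the long trimer into enlarged COPII carriers.

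The elements through which these pathways act on their genes were looked for in RefSeq promoters (GRCm38.p6, 250 bases before to 50 after the start), which were at hand for 29 of the 34 genes. Those of Atf6, Manf, Creb3l1, Fkbp10 and Hyou1 were not at hand and were not searched. The ER stress response element (ERSE, read as CCAAT, any 9 bases and CCACG, on either strand) is a known site of ATF6 together with the CCAAT-binding factor NF-Y. It occurred in 7 of the 29 promoters (24.1%) and in 0.119% of all 32851 promoters. The genes were listed for their known part in ER folding and stress, so that contrasts with all promoters, here and below, are no independent test. The 8 matches are shown because this element is the textbook entry point of the unfolded protein response into chaperone genes. Capitals mark the match, each sequence runs 5′ to 3′ on the gene's own strand with 5 bases on either side, and CGTGG followed by ATTGG is the element on the other strand.
Hspa5, chr2:34772020-34772048, plus strand: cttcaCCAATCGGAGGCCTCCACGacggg
Hsp90b1, chr10:86705528-86705556, minus strand: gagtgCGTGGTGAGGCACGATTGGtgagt
Hsp90b1, chr10:86705633-86705661, minus strand: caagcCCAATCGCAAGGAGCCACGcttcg
Pdia6, chr12:17266486-17266514, plus strand: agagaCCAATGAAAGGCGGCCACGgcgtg
Canx, chr11:50325795-50325823, minus strand: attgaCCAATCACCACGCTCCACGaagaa
Calr, chr8:84847070-84847098, minus strand: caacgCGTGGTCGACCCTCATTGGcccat
Dnajc3, chr14:118937822-118937850, plus strand: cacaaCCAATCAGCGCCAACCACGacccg
Creld2, chr15:88819515-88819543, plus strand: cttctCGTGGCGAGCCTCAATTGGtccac

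The shorter ERSE-II was read as ATTGG, any 1 base and CCACG, on either strand. Its half-sites are set closer than in ERSE, and CCAAT is reversed (ATTGG) relative to CCACG. ERSE-II lay in 2 of the 29 promoters (6.9%, against 0.0365% of all promoters), Herpud1 before its start and Dnajb11 after it. The C/EBP-ATF response element (CARE, searched as TGATGNAA on either strand), the site of ATF4, lay in 4 of the 29 (13.8%, against 3.97%): Asns, Chac1, Herpud1 and, after its start, Trib3. Herpud1 held a match to both kinds, at -52 (ERSE-II) and -112 (CARE) from its start. No printed match overlaps another.
Herpud1, chr8:94386372-94386392, plus strand: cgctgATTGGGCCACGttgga
Asns, chr6:7693220-7693237, minus strand: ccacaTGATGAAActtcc
Chac1, chr2:119351044-119351061, plus strand: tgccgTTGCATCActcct
Herpud1, chr8:94386312-94386329, plus strand: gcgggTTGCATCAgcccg

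A match is a run of letters and not a measured site. Serpinh1 and P4hb were the members whose genotypes did not overlap, and the 250 bases before each start are shown for that reason. Neither window held any of the 3 elements as spelled above.
Serpinh1, chr7:99353240-99353489, minus strand: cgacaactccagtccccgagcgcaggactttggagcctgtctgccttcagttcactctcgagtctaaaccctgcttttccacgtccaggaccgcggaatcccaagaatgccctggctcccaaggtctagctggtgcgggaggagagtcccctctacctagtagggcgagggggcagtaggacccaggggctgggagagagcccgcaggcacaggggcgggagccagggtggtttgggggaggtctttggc
P4hb, chr11:120573254-120573503, minus strand: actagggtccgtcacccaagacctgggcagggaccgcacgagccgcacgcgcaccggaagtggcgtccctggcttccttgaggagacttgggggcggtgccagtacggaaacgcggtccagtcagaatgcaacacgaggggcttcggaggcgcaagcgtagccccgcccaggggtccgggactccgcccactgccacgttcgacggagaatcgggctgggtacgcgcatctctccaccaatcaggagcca

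Values below are read counts normalized for library size, and differences are KPCAf/f minus KPC on the log2(normalized count + 1) scale, so that positive values mean higher in KPCAf/f. The libraries held 15124888 to 20419830 reads. KPC line A1620 stood apart by transcript length: relative to each gene's level over the lines its values changed by -0.654 on the log2 scale for each doubling of length, against -0.021 to 0.039 in the 4 remaining KPC libraries and 0.096 to 0.15 in KPCAf/f libraries. In A1693 (KPCAf/f) the pancreatic factor Pdx1 stood at 2.70 and E-cadherin (Cdh1) at 10.8. Sox9, of the same list, stood at 945 there, the highest of the 10 lines. Of the 8 epithelial and pancreas markers 6 were at 10 or more in A1693, against all 8 in every other line. The 8 summed to 6860 in A1693, against 31026 to 114045 in the other KPCAf/f lines and 118002 to 266918 in the KPC lines. The sum of 12 fibroblast markers, Col1a2 among them, was 10.6 to 61.6 in KPC lines, with 0 or 1 marker at 10 or more, and 6471 to 85182 in KPCAf/f lines, with 6 to 10 markers at 10 or more. Of 10 acinar markers, whose cells are rich in ER, Amy2a5 and Pnlip were at 0 in every line and only Cela1 reached 10 in any. The 8 immune markers summed to 46.9 to 293 and the 6 endothelial markers to 7.22 to 668 over the 10 lines. Reads of 4 Y-linked genes numbered 1148 to 3415 in each KPC line and 0 to 3 in each KPCAf/f line, so that genotype and sex chromosome content cannot be told apart. Arid1a itself stood at 820 in A1620, at 1915 to 3109 in the 4 remaining KPC lines and at 1253 to 1785 in KPCAf/f lines. A gene-level count includes exons that a deletion leaves in place and so checks nothing about recombination. In bulk RNA, fewer cells of a type and less RNA per cell cannot be told apart.

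None of the 34 genes passed an adjusted p of 0.05 between genotypes (limma, Benjamini-Hochberg over 13089 tested genes, 5 lines against 5), where 1.75% of all tested genes did. All 34 had passed the expression filter. At an unadjusted p under 0.05 there were 2 of the 34, Serpinh1 and Sesn2, both higher in KPCAf/f, against 14.6% of all tested genes. That count depended on the lines. It was 5 without A1081 (3 of the 4 procollagen genes, in place of 1), where 1864 of all 13089 tested genes had such a p. It was 4 without A3992 (1976 of 13089) and 4 with array weights, limma's weighting of libraries by their quality (2829 of 13089). Without A1620 and A1693 together it was 1 (1863 of 13089). edgeR called 0 of the 34 (1.31% of all genes) and had 2 at an unadjusted p under 0.05 (14.6%). limma-voom called 0 (0.802%) and had 2 at an unadjusted p under 0.05 (14.2%). DESeq2 called 1, Serpinh1, as higher, where it called 5.58% of all genes and 3.98% as higher, and had 3 at an unadjusted p under 0.05 (16.8%). The median difference of the 34 was -0.04 and their median absolute difference 0.19, against -0.01 and 0.36 over all tested genes. The 95% interval of the difference lay within -1 and 1, a doubling either way, for 19 of the 34 genes (55.9%) and for 40.2% of all tested genes. For the other 15 the interval reached a doubling, a halving or both. The groups did not overlap for 2 members, Serpinh1 and P4hb, against 4.53% of tested genes.

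**Figure D1:**
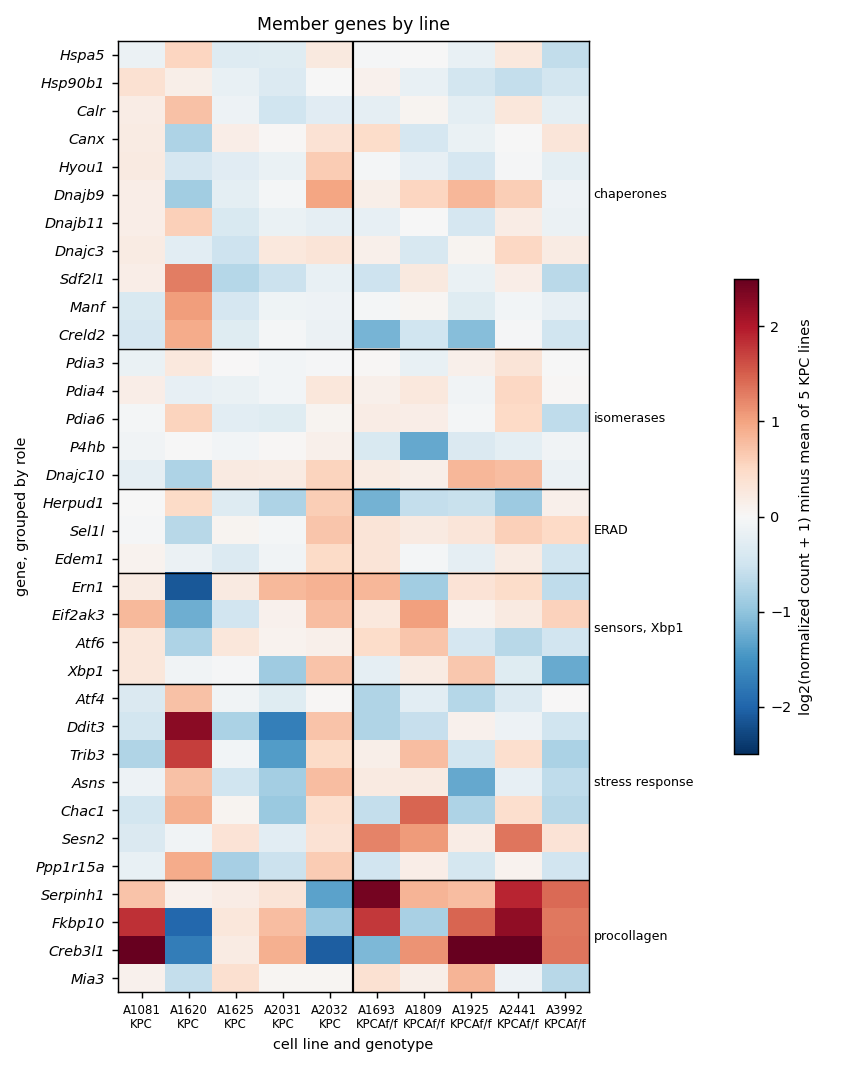
Normalized counts of the 34 genes in each of the 10 lines, as log2(normalized count + 1) minus the gene's mean over the 5 KPC lines, with rows grouped by role and the vertical line between genotypes. Colours stop at 2.5 in either direction; Serpinh1 is above the KPC mean in all 5 KPCAf/f lines, while the chaperone rows differ more between lines than between genotypes.

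**Figure D2:**
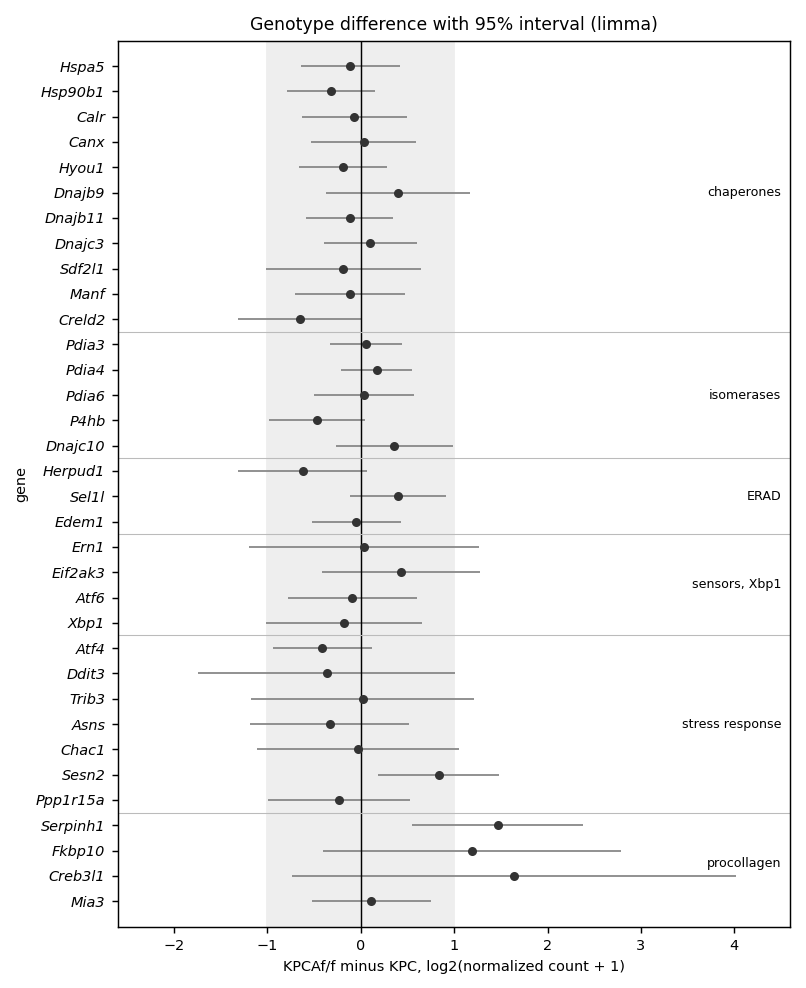
Genotype difference of each gene (points, log2 scale) with its 95% interval from limma (bars) over 5 KPC and 5 KPCAf/f lines; the grey band marks -1 to 1. Intervals of Serpinh1 and Sesn2 lie above 0, and those of the other 32 genes include 0.

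Most luminal chaperones were abundant in both genotypes and differed little between them. Hspa5, the gene of BiP, the ER Hsp70 that binds unfolded chains and holds the sensors inactive, stood at 16325 in A1081, 26402 in A1620, 14578 in A1625, 14722 in A2031 and 21495 in A2032. Its KPCAf/f values were 17801 in A1693, 18175 in A1809, 15942 in A1925, 21894 in A2441 and 11908 in A3992. The genotypes overlapped, and the difference was -0.11 ± 0.24 (SE, n = 5 lines per genotype; limma adjusted p = 0.843). Its 95% interval ran from -0.64 to 0.42, so that neither a doubling nor a halving of the mean lay within it. The sign turned positive without A1620 (0.02), without A3992 (0.01) and under quantile scaling (0.27).

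Creld2, a secreted and ER-resident disulfide-rich protein known as a target of ER stress, had the smallest p among the 11 chaperones. It measured 1158 in A1081, 2953 in A1620, 1258 in A1625, 1516 in A2031 and 1411 in A2032, and 693 in A1693, 1096 in A1809, 744 in A1925, 1528 in A2441 and 1110 in A3992. Line A1620 was high and lines A1693 and A1925 were low, and the genotypes overlapped. The difference was -0.65 ± 0.30 (limma adjusted p = 0.348) and was -0.42 without A1620. Hsp90b1 (GRP94), the ER Hsp90, stood at 25395 in A1081, 21488 in A1620, 17131 in A1625, 15250 in A2031 and 19225 in A2032, and at 20818 in A1693, 17130 in A1809, 14048 in A1925, 12896 in A2441 and 14066 in A3992. Its groups overlapped, and its difference was -0.32 ± 0.21 (limma adjusted p = 0.511). Dnajb9 (ERdj4), a J-domain co-chaperone of BiP, was far less abundant. It stood at 244 in A1081, 119 in A1620, 185 in A1625, 211 in A2031 and 430 in A2032, and at 242 in A1693, 315 in A1809, 386 in A1925, 335 in A2441 and 199 in A3992. The highest and the lowest of these 10 values were both from KPC lines, and the difference was 0.40 ± 0.35 (limma adjusted p = 0.609), or 0.18 without A1620 and 0.64 without A2032.

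The other 7 chaperones, the lectins Calr and Canx that retain glycoproteins, the Hsp70-like Hyou1, the BiP co-chaperones Dnajb11, Dnajc3 and Sdf2l1, and the secreted stress factor Manf, had differences from -0.19 to 0.10, with limma adjusted p from 0.696 to 0.965. Over all 11 the median was -0.11, with 3 above 0 and 8 below, and 8 of the 11 intervals lay within -1 and 1. Without A1620 the median was 0.03 and 7 were above 0. The 7 members with an ERSE and the 2 with an ERSE-II, of the sequences above, had a median difference of -0.11 (range -0.65 to 0.10), none passing the threshold. Per kilobase of the longest annotated transcript, the most abundant of the 34 in KPC lines was Calr (mean 8224 normalized counts per kb), followed by P4hb (7438), Hsp90b1 (6113), Pdia3 (5764) and Hspa5 (5094). In KPCAf/f lines the first 5 were Calr (7563), Pdia3 (6015), P4hb (5554), Hsp90b1 (4901) and Hspa5 (4669). The same 5 genes led in both genotypes.

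Among the disulfide isomerases, which form and reshuffle disulfide bonds, P4hb separated the genotypes in the deposited values without passing the test. P4hb encodes protein disulfide isomerase, which is also the beta subunit of the prolyl 4-hydroxylase that hydroxylates collagen. It stood at 20069 in A1081, 21133 in A1620, 20271 in A1625, 21818 in A2031 and 23116 in A2032, and at 16341 in A1693, 8794 in A1809, 16482 in A1925, 17944 in A2441 and 19895 in A3992. Every KPCAf/f line lay below every KPC line, although A3992 and A1081 were close to each other and A1809 was far below the rest. The mean was 21282 ± 1242 (SD, n = 5) in KPC and 15891 ± 4218 (SD, n = 5) in KPCAf/f, a difference of -0.47 ± 0.23 (limma adjusted p = 0.384). Without A1809 the difference was -0.27 (limma adjusted p = 0.502), and the groups were still apart. With a correction for transcript length the groups overlapped, with A3992 (KPCAf/f) at 19593 and A1620 (KPC) at 19443. Under quantile scaling the difference was -0.19.

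Dnajc10 (ERdj5), a reductase that assists disposal of misfolded protein, stood at 3101 in A1081, 2102 in A1620, 4241 in A1625, 4168 in A2031 and 5300 in A2032, and at 4183 in A1693, 3969 in A1809, 6434 in A1925, 6129 in A2441 and 3256 in A3992. The groups overlapped, with A1620 the lowest line, and the difference of 0.36 ± 0.28 (limma adjusted p = 0.572) was 0.17 without A1620. Pdia4 (ERp72) stood at 3823 in A1081, 2943 in A1620, 3013 in A1625, 3242 in A2031 and 4131 in A2032, and at 3727 in A1693, 4074 in A1809, 3205 in A1925, 4852 in A2441 and 3462 in A3992. Its groups overlapped, with a difference of 0.17 ± 0.17 (limma adjusted p = 0.664), or 0.0837 without A2441. Pdia3 (ERp57), which works with the lectin chaperones on glycoproteins, and Pdia6 differed by 0.06 and 0.03. Pdia3 was also among the steadiest genes measured: its spread between lines of a genotype was 0.17 on the log2 scale, at percentile 0.818 of all tested genes. All 5 isomerase intervals lay within -1 and 1, and their median difference was 0.06.

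None of the 3 degradation genes passed the threshold, and their differences had both signs. Herpud1, a membrane scaffold of the retrotranslocation complex that holds both an ERSE-II and a CARE, stood at 1661 in A1081, 2341 in A1620, 1329 in A1625, 977 in A2031 and 2573 in A2032, and at 740 in A1693, 1103 in A1809, 1136 in A1925, 890 in A2441 and 1816 in A3992. The KPC values themselves ranged widely, from A2031 to A2032, and overlapped the KPCAf/f values, with a difference of -0.62 ± 0.31 (limma adjusted p = 0.390). Sel1l, the partner of the ubiquitin ligase HRD1, stood at 1890 in A1081, 1186 in A1620, 2014 in A1625, 1852 in A2031 and 3123 in A2032, and at 2412 in A1693, 2252 in A1809, 2384 in A1925, 2921 in A2441 and 2729 in A3992. All 5 KPCAf/f lines were above 4 of the KPC lines and below A2032, and the difference of 0.40 ± 0.23 (limma adjusted p = 0.453) was 0.22 without A1620. Edem1, a lectin that extracts misfolded glycoproteins from the folding cycle, stood at 1642 in A1081, 1401 in A1620, 1211 in A1625, 1459 in A2031 and 2167 in A2032, and at 1936 in A1693, 1495 in A1809, 1327 in A1925, 1777 in A2441 and 1100 in A3992. The groups overlapped, and its difference of -0.05 ± 0.21 (limma adjusted p = 0.934) turned to 0.08 without A2032 and 0.06 without A3992. Line A2032 was the highest KPC line for all 3.

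Of the sensors, none differed past the threshold, and A1620 was the lowest of the KPC lines for Ern1, Eif2ak3 and Atf6. Eif2ak3 (PERK) stood at 1074 in A1081, 264 in A1620, 443 in A1625, 660 in A2031 and 1057 in A2032, and at 741 in A1693, 1244 in A1809, 656 in A1925, 714 in A2441 and 911 in A3992. Its groups overlapped, and its difference of 0.43 ± 0.39 (limma adjusted p = 0.613) was 0.13 without A1620 and 0.29 without A1809. Atf6 stood at 2698 in A1081, 1302 in A1620, 2688 in A1625, 2348 in A2031 and 2427 in A2032, and at 3033 in A1693, 3613 in A1809, 1655 in A1925, 1364 in A2441 and 1590 in A3992. Relative to the 4 other KPC lines, the KPCAf/f lines lay on both sides, with A1693 and A1809 above and the other 3 below. The difference was -0.09 ± 0.32 (limma adjusted p = 0.909), turning to 0.06 without A2441 and 0.01 without A3992. Xbp1, the transcript that IRE1 splices, stood at 1343 in A1081, 1041 in A1620, 1076 in A1625, 592 in A2031 and 1804 in A2032, and at 942 in A1693, 1268 in A1809, 1758 in A1925, 896 in A2441 and 458 in A3992. Both genotypes covered almost the same range, with a difference of -0.18 ± 0.38 (limma adjusted p = 0.841), which turned to 0.09 without A3992. A gene-level count adds spliced and unspliced Xbp1 and does not measure IRE1 activity. Ern1 differed by 0.03 ± 0.56 (limma adjusted p = 0.985), an interval of -1.20 to 1.26 that leaves a doubling either way inside it. Its sign turned without A1620 (-0.50), without A1693 (-0.17), with the length correction (-0.21) and in DESeq2 (-0.12).

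The integrated stress response genes varied mainly from line to line. Atf4, the transcription factor of the pathway, is controlled largely by translation, and its RNA stood at 6436 in A1081, 13759 in A1620, 7847 in A1625, 6772 in A2031 and 8490 in A2032, and at 4960 in A1693, 6896 in A1809, 5103 in A1925, 6601 in A2441 and 8344 in A3992. Line A1620 was the highest of the 10, the groups overlapped, and the difference of -0.41 ± 0.24 (limma adjusted p = 0.455) was -0.23 without A1620. Asns, the asparagine synthetase that ATF4 raises through its CARE, stood at 3750 in A1081, 6807 in A1620, 2910 in A1625, 2271 in A2031 and 6991 in A2032, and at 4786 in A1693, 4805 in A1809, 1703 in A1925, 3559 in A2441 and 2656 in A3992. Its groups overlapped, with A1620 and A2032 highest, and its difference was -0.33 ± 0.39 (limma adjusted p = 0.703), or -0.15 without A1620, -0.14 without A2032 and -0.10 without A1925.

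Sesn2, a stress-induced inhibitor of mTORC1, had the smallest p of this group and the second smallest of the 34. It stood at 218 in A1081, 264 in A1620, 357 in A1625, 234 in A2031 and 363 in A2032, and at 663 in A1693, 588 in A1809, 320 in A1925, 711 in A2441 and 355 in A3992. Lines A1693, A1809 and A2441 were above every KPC line, while A1925 and A3992 lay within the KPC range. The means were 287 ± 68.7 and 527 ± 179 (SD, n = 5 each), and the difference of 0.83 ± 0.30 did not pass after adjustment (unadjusted p = 0.0167, limma adjusted p = 0.224, 0.0778 to 0.409 over the other settings). The differences of 4 other members of the pathway were -0.37 ± 0.62 for Ddit3 (CHOP), 0.02 ± 0.54 for Trib3, -0.03 ± 0.49 for the glutathione-degrading enzyme Chac1 and -0.23 ± 0.35 for Ppp1r15a (GADD34), which restores translation. Their limma adjusted p ranged from 0.771 to 0.990. Without A1620 they were 0.20 for Ddit3, 0.45 for Trib3, 0.19 for Chac1 and -0.0014 for Ppp1r15a, and Ddit3 stood at -1.02 in edgeR and -1.04 in DESeq2. Over the 7 genes the median was -0.23, with 2 above 0, and without A1620 it was 0.19, with 4 above 0. Within KPC, A1620 was the highest line for 5 of the 7 and A2032 for the other 2, and A2031 was the lowest for 4. Within KPCAf/f, A1809 was the highest for 4.

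The procollagen group held the largest differences of the 34, with a median of 1.33, and all 4 were above 0. Serpinh1 encodes HSP47, the chaperone that binds the collagen triple helix in the ER (chromosome 7, 99345376 to 99353239, minus strand, GENCODE M21 on GRCm38). It stood at 4774 in A1081, 3146 in A1620, 3328 in A1625, 3644 in A2031 and 1156 in A2032, and at 15293 in A1693, 5227 in A1809, 5004 in A1925, 10853 in A2441 and 7774 in A3992. Every KPCAf/f line lay above every KPC line, with A1925 and A1809 only just above A1081. The means were 3210 ± 1311 and 8830 ± 4319 (SD, n = 5 each), a ratio of 2.75, or 2.25 without A1693. The log2 difference of 1.46 ± 0.42 (95% interval 0.55 to 2.38, unadjusted p = 0.0047) had a limma adjusted p of 0.126. Over the other settings it ranged from 1.13 to 1.64, with adjusted p from 0.0166 in DESeq2, the only setting that called it, to 0.257 without A2441.

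Fkbp10 (FKBP65), a prolyl isomerase that acts with HSP47 on procollagen, stood at 2700 in A1081, 196 in A1620, 930 in A1625, 1302 in A2031 and 407 in A2032, and at 2620 in A1693, 437 in A1809, 2108 in A1925, 3550 in A2441 and 1915 in A3992. The groups overlapped: A1081 was the second highest of the 10 lines, and A1809 was below 3 KPC lines. The difference was 1.19 ± 0.73 (limma adjusted p = 0.470) and 0.70 without A1620. Fkbp10 shares 193 exon bases with Nt5c3b on the opposite strand, and the strand setting of the counting is not given in the sources used here. Creb3l1 (OASIS), an ER-bound transcription factor known to raise type I collagen in osteoblasts, stood at 476 in A1081, 21.2 in A1620, 83.2 in A1625, 134 in A2031 and 16.5 in A2032, and at 32.4 in A1693, 158 in A1809, 468 in A1925, 1318 in A2441 and 185 in A3992. It had the widest spread of the 34 between lines of a genotype, and its lowest KPCAf/f line was A1693, the line with the most type I collagen. Its difference was 1.64 ± 1.08 (limma adjusted p = 0.504), from 1.0 without A2441 to 2.33 without A1693. Mia3 (TANGO1) differed by 0.11 ± 0.29 (limma adjusted p = 0.869), and its interval of -0.52 to 0.75 excluded a doubling. Its sign turned without A1620, to -0.03.

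Type I collagen itself, the sum of Col1a1 and Col1a2 in each line, was far higher in every KPCAf/f line than in any KPC line. The sum was 41.7 in A1081, 91.4 in A1620, 31.3 in A1625, 146 in A2031 and 33.0 in A2032, and 74595 in A1693, 13528 in A1809, 8087 in A1925, 18894 in A2441 and 12272 in A3992. The ratio of means was 371, or 192 without A1693. In A1693 the sum was mostly Col1a2 (71336, against 3259 for Col1a1), whereas Col1a1 exceeded Col1a2 in the other 4 KPCAf/f lines. As a share of all normalized counts, collagen I made up 0.000172 to 0.000802% in KPC and 0.0471 to 0.430% in KPCAf/f. The 16 chaperones and isomerases together made up 0.622 to 0.743% in KPC (mean 0.685%) and 0.629 to 0.804% in KPCAf/f (mean 0.694%). The ratio of their mean summed normalized counts, KPCAf/f over KPC, was 0.911, or 0.898 without A1693. Share and summed count thus differed in direction. All normalized counts of a library summed to 18192717 to 22220196 in KPC and 16712551 to 17497668 in KPCAf/f. The collagen I count per Serpinh1 count was 0.00873 to 0.0402 in KPC lines and 1.58 to 4.88 in KPCAf/f lines. Without Col1a2, the other 11 fibroblast markers summed to 9.27 to 59.7 in KPC and 2453 to 13846 in KPCAf/f lines, higher in the genotype with more collagen I, and their part in the Serpinh1 values was not tested.

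The genotypes formed separate clusters on collagen I and held 5 lines each, so that a correlation over the 10 lines would mix the difference between genotypes with any relation within them and is not given. A model with genotype and 1 slope on log2(Col1a1 + Col1a2 + 1) common to both genotypes was fitted across all genes. No member, and 0.0% of all tested genes, had an adjusted p under 0.05 (limma). At an unadjusted p under 0.05 there was 1 member, Serpinh1, against 6.38% of all tested genes. Its slope was 0.42 ± 0.18 (SE) log2 units per doubling of collagen I (95% interval 0.02 to 0.81, unadjusted p = 0.0397, limma adjusted p = 0.723). Among KPCAf/f lines the order of Serpinh1 followed that of collagen I in the 2 highest, A1693 and A2441, while A3992 was above A1809 in Serpinh1 and below it in collagen I. Among KPC lines A1081 had the most Serpinh1 but less collagen I than A2031 and A1620. The next smallest p-values were those of Herpud1, with a slope of -0.26 ± 0.15 (unadjusted p = 0.101), and Xbp1, with -0.26 ± 0.18 (unadjusted p = 0.183), or -0.54 without A1693 (unadjusted p = 0.061). The slope of Hspa5 was 0.06 ± 0.13, with an interval of -0.22 to 0.34. Without A1693, which held the top of the collagen range, the slope of Serpinh1 was 0.37 (unadjusted p = 0.202), and no member had an unadjusted p under 0.05 (1.65% of all genes). Without A2031 the slope passed the adjusted threshold for 0.183% of all genes, none of them a member.

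**Figure D3:**
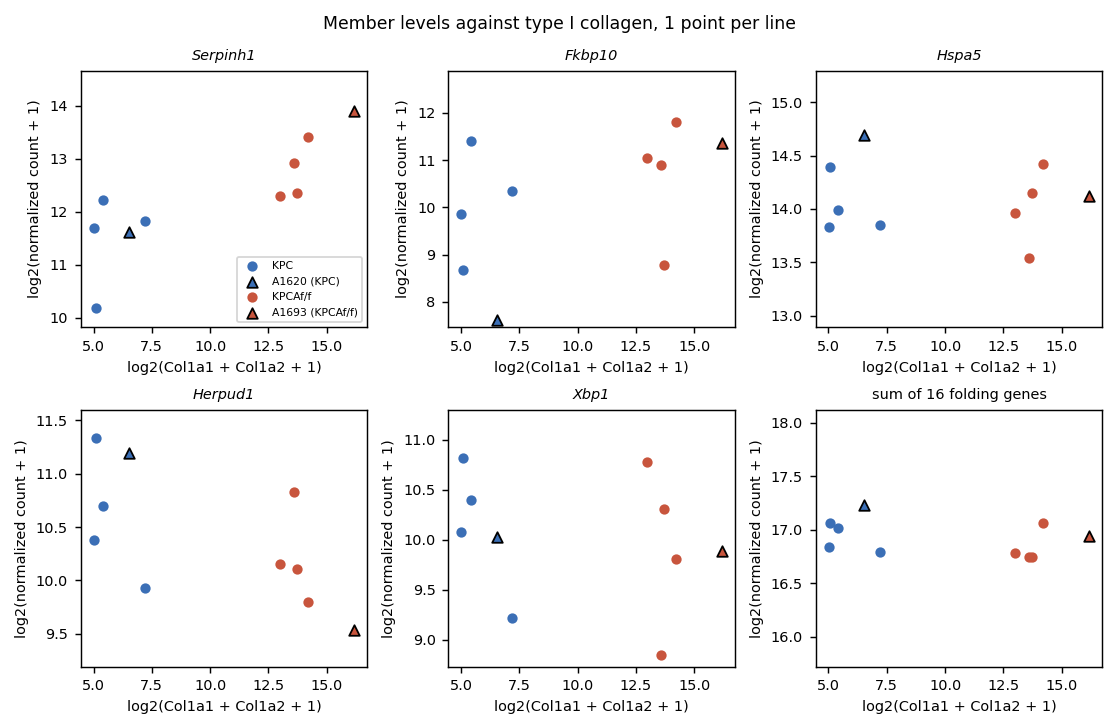
Levels of 5 members and of the summed 11 chaperones and 5 isomerases (vertical axes, log2(normalized count + 1), with their own range in each panel) against log2(Col1a1 + Col1a2 + 1), 1 point per line; triangles mark A1620 and A1693. The genotypes stand apart on the collagen axis in every panel, and on the vertical axis only in the Serpinh1 panel.

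Line A1620 touched many of these values in a way that followed transcript length. For the 5 members whose longest transcript was under 2000 bases, A1620 was above the mean of the other 4 KPC lines in 5 of 5, with a median gap of 1.15 on the log2 scale. For the 20 members of 2000 to 4000 bases it was above in 12, with a median of 0.25, and for the 9 longer ones in 0, with a median of -0.96. After a loess correction for transcript length in each library the 3 medians were 0.37, 0.20 and 0.09, and A1620 was above in 5 of 5, 12 of 20 and 5 of 9. Ddit3, whose longest transcript has 969 bases, stood at 1746 in A1620 and 111 to 604 in the other KPC lines, and at 764 in A1620 after the correction. Ern1, with 6946 bases, stood at 228 in A1620 and 1147 to 1808 in the other KPC lines. Ddit3 also shares 68 exon bases with Mars on the opposite strand. With the correction, 0 of the 34 passed the genotype test, and Serpinh1 had a difference of 1.54 (limma adjusted p = 0.102).

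**Figure D4:**
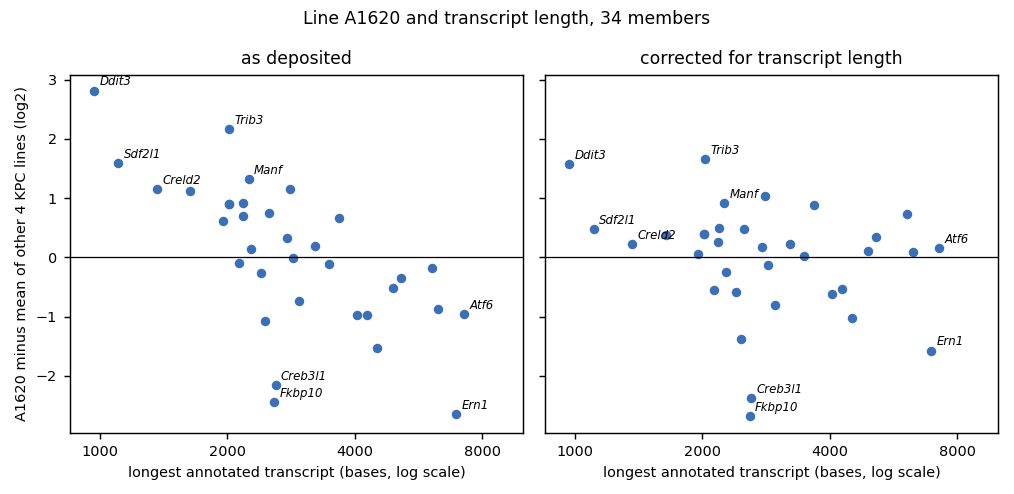
Each of the 34 genes as the log2 gap between line A1620 and the mean of the other 4 KPC lines (vertical axis) against its longest annotated transcript in bases (log axis), as deposited (left) and after the length correction (right). Short transcripts lie above 0 and long ones below it on the left; on the right Ddit3, Trib3 and Ppp1r15a lie above 1, and Fkbp10, Creb3l1, Ern1, Dnajb9 and Eif2ak3 below -1.

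Of 145 other genes of the same pathways, 141 were tested and 1 rose, none fell, against 1.36% and 0.39% of all tested genes. The 1 was Rcn1, an ER-luminal calcium-binding protein of the CREC family. It stood at 65.3 in A1081, 13.2 in A1620, 57.7 in A1625, 1.12 in A2031 and 3.09 in A2032, and at 3277 in A1693, 207 in A1809, 871 in A1925, 2262 in A2441 and 556 in A3992. Every KPCAf/f line was above every KPC line, and the difference was 6.11 ± 1.07 (limma adjusted p = 0.0140, 0.00944 to 0.0445 with 1 line left out). It did not pass in limma-voom (0.0930) or without A1620 and A1693 together (0.0766). At an unadjusted p under 0.05 there were 10 higher and 4 lower of the 141, against 14.6% of all tested genes in either direction.

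Among 18 tested procollagen helpers, 5 had an unadjusted p under 0.05, all higher in KPCAf/f, and none passed after adjustment with equal weights for all 10 lines. Rcn3, a relative of Rcn1, stood at 338 in A1081 and 3.09 to 15.6 in the other KPC lines, and at 173 to 1724 in KPCAf/f lines, a difference of 4.43 ± 1.09 (limma adjusted p = 0.0766). Sparc, a secreted collagen-binding glycoprotein, stood at 136 to 6780 in KPC and 3644 to 18987 in KPCAf/f lines, a difference of 3.61 ± 1.03 (limma adjusted p = 0.128). Plod2, the lysyl hydroxylase of collagen telopeptides, stood at 83.4 to 864 in KPC and 546 to 1136 in KPCAf/f lines, a difference of 1.73 ± 0.51 (limma adjusted p = 0.141). In all 3 the highest KPC line was A1081, and without it all 3 passed the limma test, at adjusted p of 0.00404, 0.0497 and 0.0187. Leaving out the highest KPC line raises the difference of these genes in any case, so that these passes are no separate evidence. Of all 13089 tested genes, 1864 had an unadjusted limma p under 0.05 without A1081, 2829 with array weights and 1917 in the main fit. With array weights over all 10 lines Rcn3 (limma adjusted p = 0.0402) and Sparc (0.0208) also passed, and Plod2 did not (0.0755). Line A1081 was also the highest KPC line for Serpinh1, Fkbp10 and Creb3l1. The list's median difference was 0.39, with 13 of 18 above 0.

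Other ER folding genes beyond Rcn1 were led by Tmx3 (0.53 ± 0.24) and Creld1 (0.66 ± 0.30), with a list median of 0.10 over 29 genes. Of 20 other degradation genes, Vcp (-0.58 ± 0.24), Ube2j1 (-0.53 ± 0.23) and Edem2 (-0.48 ± 0.23) had the smallest p, and the list median was -0.09. Vcp is the ATPase that pulls substrates from the ER membrane. Of 17 other sensors and regulators, Creb3l3, an ER-bound factor best known from liver, stood at 18.5 to 54.9 in KPC and 0 to 22 in KPCAf/f lines. Its difference was -2.85 ± 0.76 (limma adjusted p = 0.103), and it passed without A3992 (0.0334) and with array weights (0.0330). Mbtps1, a protease that cleaves ATF6, differed by 0.38 ± 0.16, and Creb3l4 by 1.31 ± 0.60. With equal weights and all 10 lines, limma adjusted p of the 8 genes named here ranged from 0.103 to 0.370.

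The 32 tested targets of ATF4 and the integrated stress response had a median of -0.24, with 24 below 0 and none past the threshold. The smallest p-values belonged to the serine synthesis enzyme Phgdh (-0.74 ± 0.37), the tryptophanyl-tRNA synthetase Wars (-0.49 ± 0.25) and the cystine transporter Slc7a11 (-1.13 ± 0.60), with limma adjusted p from 0.388 to 0.411. Of the 25 COPII export genes, none passed, the median was 0.01, and 21 of the 25 intervals lay within -1 and 1. The smallest p-values there were those of the cargo receptor Lman1 (0.50 ± 0.19, limma adjusted p = 0.255), the GTPase Sar1b (-0.47 ± 0.20, 0.303) and the exchange factor Preb (-0.38 ± 0.18, 0.353).

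**Figure D5:**
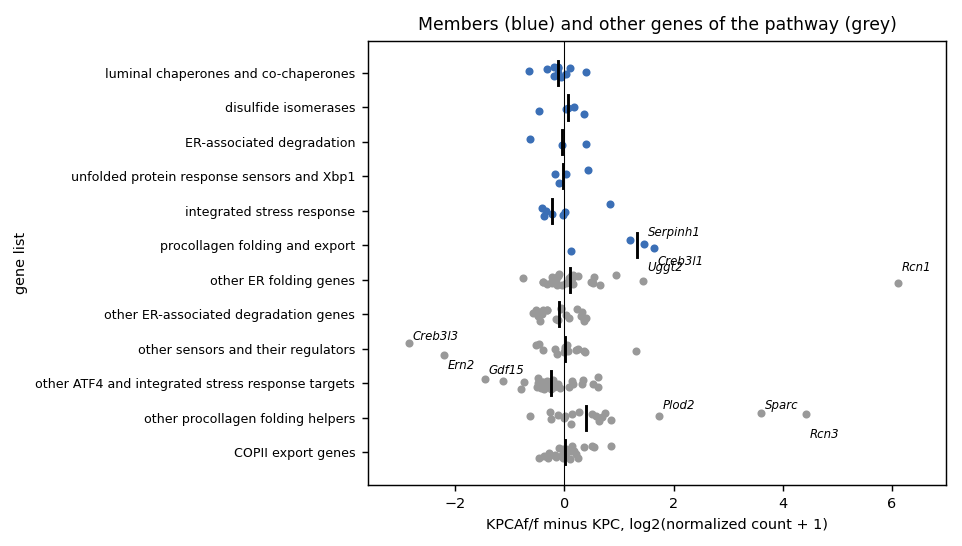
Genotype difference (log2 scale) of the 34 members by role (blue) and of 141 other tested genes of the same pathways by list (grey), 1 point per gene, with black bars at list medians and names for genes beyond 1.4 in either direction. The procollagen members have the highest median, 1.33, and Rcn1 is the point at 6.11.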

How the data were processed

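Gene-level RNA-seq values of 10 cell lines were used, 1 library per line, with genotypes from the labels. RNA was purified with an RNeasy kit and libraries were prepared with a stranded TruSeq mRNA kit, per the labels' protocols. The submitters' processing notes name STAR 2.5.2b, featureCounts from Subread 1.5.0p3, Trimmomatic 0.36 and DESeq2 1.14.1, and the builds GRCm38.p5 and mm9 without a role. How strand was handled in counting, and with which annotation, is not given in the sources used here. Ddit3, Fkbp10, Hsp90b1, Manf, Pdia3, Pdia6, Ppp1r15a, Eif2ak3 and Dnajb9 have exons that overlap a gene on the opposite strand, and their reads are uncertain to that extent.

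The deposited values are a signal: gene counts that the authors divided by DESeq2 size factors. Whole reads were recovered within 0.001 read for 100.0% of the values in each library, and no pair of libraries was close enough to be a single library (lowest chi-square per degree of freedom 60.6). GENCODE M21 (GRCm38), where 95.3% of the symbols were found, gave gene positions and transcript lengths.

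Genotypes were compared with limma 3.58.1 (R 4.3.3), its prior following an intensity trend. The test ran on log2(normalized count + 1), was two-sided, used Benjamini-Hochberg adjustment over the 13089 genes that reached 10 normalized counts in 5 or more of 10 lines, and had a threshold of 0.05. The pseudocount of 1 understates changes of low genes. The fit against collagen I added log2(Col1a1 + Col1a2 + 1) to genotype. Other settings were pseudocounts of 0.5 and 5, no filter or a mean filter of 100, TMM and quantile scaling, array weights, a loess correction for transcript length, each line left out in turn, and A1620 and A1693 left out together. The recovered reads were also tested with limma-voom, edgeR 4.0.16 and DESeq2 1.42.0. Scripts were tested on simulated data. Figures were drawn with matplotlib 3.10.9.

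The 34 genes, the related lists and the settings were chosen with earlier results of these data known. Values in every line are printed for members past the threshold, members whose genotypes do not overlap and the 3 members of each role with the smallest p. For related genes the 3 of each list with the smallest p are named, as are the 3 smallest p-values of the collagen slope. Hspa5 was added to the genes given line by line after its values were seen.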

Additional observations from a re-analysis of the deposited data

Results flagged for a closer look

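Among 68 groups of 5 lines (34 genes in 2 genotypes), 5 held a line whose gap to its nearest neighbour, as a share of the group's range on the log2 scale, was above Dixon's critical value of 0.71. Chance flags about 1 in 20 such groups, and groups of the same lines are not independent of each other. Of the 5, 4 concerned KPC line A1620. Manf, a secreted ER stress factor, stood at 4925 normalized counts in A1620 and 1765 to 2198 in the other KPC lines. Creld2 stood at 2953 in A1620 and 1158 to 1516 in the others. The sensor Ern1 stood at 228 in A1620 and 1147 to 1808 in the others, and the sensor Atf6 at 1302 and 2348 to 2698. The longest transcripts of Manf (2247 bases) and Creld2 (1366) are shorter than those of Ern1 (6946) and Atf6 (7246), and A1620 is the line whose values depended most on transcript length. With the length correction, the log2 gap of A1620 to the mean of the other 4 KPC lines went from 1.32 to 0.92 for Manf, 1.15 to 0.22 for Creld2, -2.64 to -1.57 for Ern1 and -0.96 to 0.15 for Atf6. The 1 flagged value among KPCAf/f lines was P4hb in A1809, at 8794 against 16341 to 19895 in the other 4.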

How the results depend on the processing

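No paired analysis was possible because the labels give each line its own identifier and no replicate number shared between genotypes. The count of members called was 0 in every setting except DESeq2, where it was 1 higher (Serpinh1). The count of related genes called higher was 1 in limma, 0 in limma-voom, 4 with array weights, 0 without A1620 and A1693 together, and 1 to 4 with 1 line left out (4 without A1081). The count called lower was 0 in limma, 1 with array weights and 0 to 1 with 1 line left out (1 without A3992). Of all 13089 tested genes, 178 were called higher in limma, 76 in limma-voom and 141 without A1620 and A1693 together. At an unadjusted p under 0.05 there were 1917 of the 13089 in limma, 2829 with array weights, 1864 without A1081 and 1976 without A3992. For these last 3 settings the share of all genes past the adjusted threshold is not given here. For these related genes, the settings other than edgeR, the length correction and the left-out lines were added after seeing the data; under the other scalings, pseudocounts, filters and tests both counts were as in limma. Under quantile scaling the difference turned to 0.022 for Hsp90b1 and 0.27 for Hspa5. With array weights it turned to 0.12 for Xbp1 and 0.0516 for Hspa5, and without A1620 and A1693 to 0.0011 for Hspa5. With 1 line left out it ranged from -0.14 to 0.0755 for Edem1, -0.40 to 0.0908 for Xbp1, -0.29 to 0.0625 for Atf6 and -0.21 to 0.0216 for Hspa5. None of these 5 genes passed in any setting, and the cause of the sign changes was not tested. Role medians over all settings ranged from -0.22 to 0.05 for chaperones, -0.01 to 0.30 for isomerases, -0.25 to 0.08 for degradation, -0.30 to 0.14 for the sensors and Xbp1, -0.43 to 0.29 for the integrated stress response and 0.91 to 1.66 for the procollagen group, of which 3 or 4 of 4 were above 0. Without A2031 the collagen slope passed for 24 genes, none of them a member. With 5 lines per genotype, intervals of the variable genes (Creb3l1, Fkbp10, Ddit3, Ern1, Trib3, Chac1) reach a doubling, and differences of that size were not detectable for them. Those of Creld2, Sdf2l1, Dnajb9, Herpud1, Eif2ak3, Xbp1 and Asns also reach a doubling or a halving, which was not excluded for these genes. Intervals of Sesn2 and Serpinh1 lie above 0 and reach a doubling too.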
